A study of Mus musculus with 4 samples.

Results

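Gfap, Vim, Nes and Synm encode the intermediate filament proteins of astrocytes and of the neural progenitors they derive from. Their surroundings were searched for SOX2 peaks in chromatin of the mouse cortex. A peak belonged to a gene when its centre lay inside the RefSeq span of the gene or within 50 kb of it, and 23 peaks met this rule: 8 of 17730 in IP library 1, 7 of 17628 in IP library 2 and 8 of 15891 in IP library 3. The 4 genes are among 21887 protein-coding genes placed on the mm10 build. The rule itself used gene names and positions and no binding value.

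SOX2 ChIP-seq (an antibody enriches the chromatin fragments that SOX2 sits on, and their DNA is sequenced) was made from cortex of wild-type male C57BL/6 mice aged 2 months. There were 3 immunoprecipitated (IP) libraries and 1 input library of unselected chromatin, and no group with another genotype, age or treatment. All 4 samples also carry a label that names SOX2 as a transduced factor, which the tissue protocol does not mention. No label ties the 3 IP libraries to different animals, and their spread may then be purely technical. The input was the only control, so fragments pulled down for reasons other than SOX2 cannot be told apart. The cortex was taken whole, so the cell type that gave a peak cannot be told apart.

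Intermediate filaments are rope-like polymers that give a cell mechanical strength. Astrocytes build them from GFAP, the classical astrocyte marker, together with vimentin, and nestin and synemin join as partners that need vimentin or a like protein to form filaments. Nestin and vimentin mark radial glia and neural stem cells, GFAP rises as astrocytes mature and react to injury, and SOX2 is a transcription factor of the stem cells that astrocytes continue to make. A neural enhancer of Nes in its second intron is a textbook target of SOX2 acting with POU factors, and the upstream flank of Gfap is widely used to drive genes in astrocytes.

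The 4 genes differed in what was found near them. Gfap had a region, 1.4 kb upstream of its start, that all 3 libraries found. Nes and Vim each had a region inside the gene that IP libraries 2 and 3 found and IP library 1 did not. A signal of IP library 1 too weak to be called there would not appear in the deposited peaks. Regions of all 3 libraries nearest to other genes, Kif18b near Gfap and Bcan near Nes, also lay within 50 kb. Synm had no peak in any library. Peaks of different libraries that shared 1 bp or more were joined into regions. Peak strength is expressed as the authors' normalized tags, that is, mapped reads per 10000000 reads of the library. IP library 1 had 36330529 tags and called peaks from a score of 14 upward. IP library 2 had 32492927 tags with a minimum score of 13, and IP library 3 had 41875666 with 16. The score is the peak caller's own value, made with a cap on tags per bp, which was 1 in IP libraries 1 and 2 and 2 in IP library 3. Tag counts below were derived from normalized tags and not from the score, which can lie above or below them. Intervals of normalized tags below are exact 95% Poisson intervals on the tags of 1 library, and they cover counting error only. They may be too narrow even for that, since reads copied by PCR are not independent molecules.

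**Figure D1:**
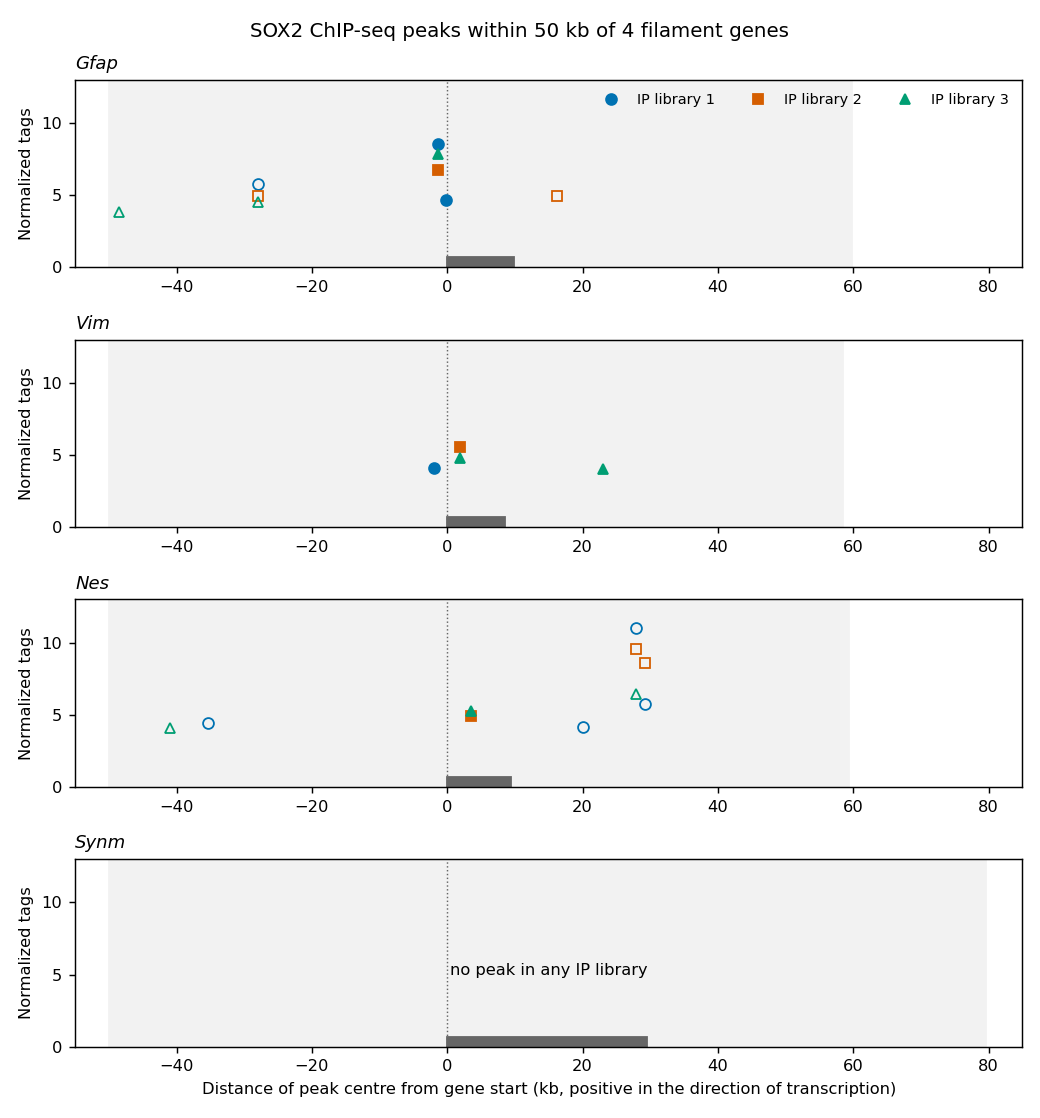
Peaks near Gfap, Vim, Nes and Synm, by distance of the peak centre from the gene start (kb) and normalized tags. Grey bars are the genes, light grey is the 50 kb window, filled points have the named gene as their nearest protein-coding gene, and open points have another one. Filled points of all 3 libraries meet only upstream of Gfap, and the panel of Synm is empty.

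Gfap lies on chromosome 11 from 102887336 to 102897200, on the minus strand. Its sequence just upstream of the start is shown because a peak of IP library 1 covered part of it, beside that of Kif18b, a mitotic kinesin gene in the same window whose start was covered in all 3 libraries. Both run 5′ to 3′ over the 250 bases before the start, from RefSeq on GRCm38.p6 (mm10), minus strand, chr11:102897201-102897450 for Gfap and chr11:102925125-102925374 for Kif18b. Capitals mark the bases under the peak of IP library 1 at Gfap (106 bases) and under the peaks of all 3 libraries at Kif18b (102 bases).
Gfap: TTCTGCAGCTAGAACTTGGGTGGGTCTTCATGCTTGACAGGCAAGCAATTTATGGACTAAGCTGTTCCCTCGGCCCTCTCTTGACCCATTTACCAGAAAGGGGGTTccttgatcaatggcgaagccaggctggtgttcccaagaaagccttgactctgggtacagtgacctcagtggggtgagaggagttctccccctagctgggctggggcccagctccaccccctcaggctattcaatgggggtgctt
Kif18b: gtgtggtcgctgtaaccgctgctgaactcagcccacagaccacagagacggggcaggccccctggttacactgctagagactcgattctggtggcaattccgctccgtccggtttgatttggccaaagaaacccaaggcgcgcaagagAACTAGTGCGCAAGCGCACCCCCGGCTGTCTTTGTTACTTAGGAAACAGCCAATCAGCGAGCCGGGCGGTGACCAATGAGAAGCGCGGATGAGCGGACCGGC

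In these 250 bases, Gfap, Vim and Nes held no match, on either strand, to any of 7 motifs searched. These were the SOX cores CATTGT and CTTTGT, the POU octamer ATGCAAAT, the STAT motif TTCNNNGAA, the palindromic NFI site, the AP-1 motif TGANTCA and the E-box CANNTG. Synm held 1 E-box, CACGTG, 193 bases before its start. The Kif18b sequence held CTTTGT once, inside the capitals, 73 bases before the start. Of 21238 promoters of protein-coding genes, 9.36% held CATTGT in the same window, 14.9% CTTTGT, 6.57% the STAT motif, 1.58% the POU octamer, 6.14% the AP-1 motif, 0.033% the NFI palindrome and 62.8% an E-box. A missing match says only that these letters are not in this window. The sequence of the region 1.4 kb upstream of Gfap was not analysed here.

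The main Gfap region spanned 102898474 to 102898695 on chromosome 11, a length of 222 bp. It held 8.53 normalized tags in IP library 1 (interval 5.80 to 12.1), 6.77 in IP library 2 (4.24 to 10.3) and 7.88 in IP library 3 (5.42 to 11.1), a mean of 7.73 ± 0.890 (SD, n = 3). The 3 intervals overlap, and a difference between the libraries was not tested. Behind these values stood 31, 22 and 33 tags. The peak scores were 26, 18 and 34 against minimums of 14, 13 and 16.

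The peak centres of this region lay 1.35, 1.42 and 1.37 kb upstream of the Gfap start in IP libraries 1, 2 and 3, a spread of 69 bp, and 84 bp were common to all 3 peaks. The region was of ordinary strength: it ranked 4561 of 9334 regions found in all 3 libraries, whose median was 7.63 normalized tags. The peak stood at percentile 73.4, 58.9 and 76.5 of all peaks of IP libraries 1, 2 and 3. Its local enrichment, the authors' ratio of tag density to the surrounding 10 kb, was 8.73, 7.87 and 9.06. The medians of all peaks of these libraries were lower, 7.67, 7.64 and 6.74, but they include peaks found in 1 library only. Local enrichment was not set beside that of the other regions of all 3 libraries.

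Enrichment over the input was less precise than strength. The authors' folds for this region were 28.1, 11.2 and 13 in IP libraries 1, 2 and 3, over 1, 2 and 2 input tags. The lower ends of the exact 95% intervals of these folds were 4.68, 2.74 and 3.32, and the upper ends 1145, 97.8 and 112. The higher fold of IP library 1 rests on 1 input tag, and the 3 intervals overlap. All 3 folds share the 1 input library and are not independent.

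A second Gfap peak, at 102897345 to 102897497, was called in IP library 1 alone. Its centre lay 0.221 kb upstream of the start, and it reached into the promoter sequence shown above. It held 4.68 normalized tags (2.73 to 7.49) from 17 tags, with a fold of 7.71 over 2 input tags, and stood at percentile 20.9 of its library. Its score was 3 above the minimum of 14, while its local enrichment of 4.55 was close to the 4-fold that the authors required. Such a promoter peak is not rare, since 13.8% of 21238 promoter windows (250 bases before to 50 after the start) were overlapped by a peak of IP library 1, and 7.18% by peaks of all 3 libraries.

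**Figure D2:**
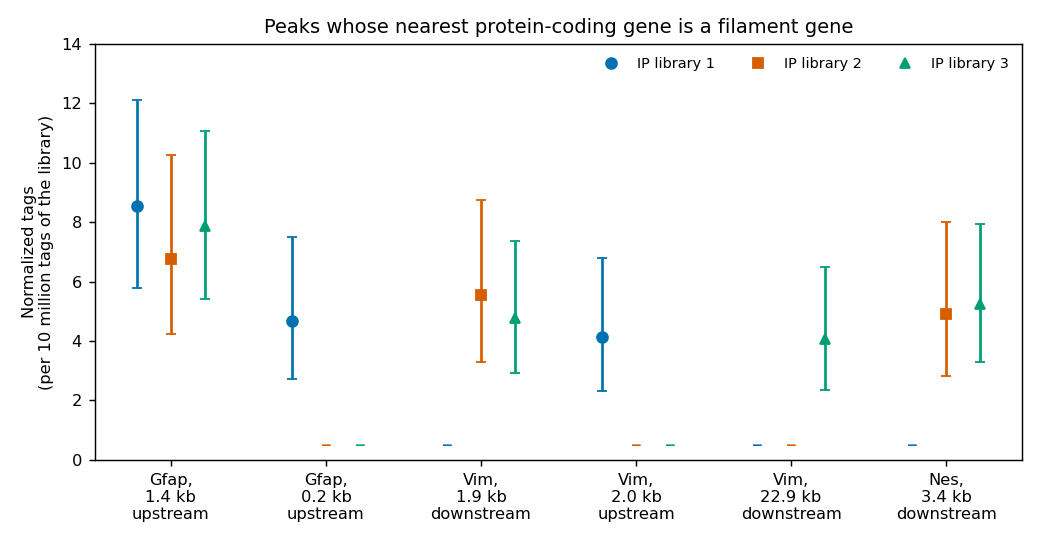
Normalized tags of the 10 peaks whose nearest protein-coding gene is Gfap, Vim or Nes, by position relative to the gene start. Points are single IP libraries, bars are exact 95% Poisson intervals, and a dash near 0 marks a library with no peak called there. The Gfap region 1.4 kb upstream is the only one of the 6 with points of all 3 libraries.

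Nes, on chromosome 3 from 87971093 to 87980451 on the plus strand, carried a region inside the gene at 87974450 to 87974611. IP library 2 had 4.92 normalized tags there (2.81 to 8.00) and IP library 3 had 5.25 (3.29 to 7.95), from 16 and 22 tags. No peak was called there in IP library 1. The 2 peak centres agreed within 6 bp, 3.44 kb downstream of the Nes start. Exon and intron positions were not used here, so whether this is the known enhancer intron was not tested.

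The Nes region had almost no signal in the 1 input library. It had 1 input tag under the peak of IP library 2 (fold 16.2, lower end of its interval 2.52). Under the overlapping peak of IP library 3 it had none (fold 34.6, lower end 4.31). Both folds share this input and are not independent. Where the input had no tag, the fold depends on a floor of 0.5 input tags. Local enrichment was 6.69 and 7.06. The region ranked 3022 among the 5496 regions found in exactly 2 libraries, whose median was 5.22 normalized tags. A gene with the centre of a region of at least 2 libraries inside it was no exception in these data: 20.2% of protein-coding genes had one, and 14.6% had one of all 3 libraries.

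Vim, on chromosome 2 from 13574311 to 13582826 on the plus strand, had a like region inside the gene at 13576098 to 13576291. It held 5.54 normalized tags in IP library 2 (3.28 to 8.76) and 4.78 in IP library 3 (2.92 to 7.38), and IP library 1 had no peak there. The centres lay 1.9 and 1.87 kb downstream of the Vim start. The scores were 15 and 21 against minimums of 13 and 16. Their tags were less focused than in a typical peak, with focus ratios, the authors' fraction of tags placed as the peak centre predicts, of 0.667 and 0.561 against library medians of 0.737 and 0.731. Local enrichment was 5.30 and 5.11, below the medians of 7.64 and 6.74.

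IP library 1 had its single Vim peak elsewhere, at 13572283 to 13572435, with the centre 1.95 kb upstream of the start. That peak held 4.13 normalized tags (2.31 to 6.81) and its score of 14 was at the minimum of the library. IP library 3 had a further peak 14.4 kb beyond the end of Vim, with 4.06 normalized tags (2.36 to 6.50) and a fold of 4.46 over 3 input tags, near the required 4-fold. So Vim had a peak in each library, and no position was found by all 3. The next peak of any library lay 303 kb from Vim.

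Synm, on chromosome 7 from 67730161 to 67759742 on the minus strand, is the longest of the 4 genes at 29.6 kb against 8.52 to 9.87 kb for the others. None of the 3 libraries had a peak inside it or within 50 kb. The nearest peak lay 77.7 kb away, inside the neighbouring gene Ttc23, in IP library 3 alone and with 4.06 normalized tags. The nearest region of all 3 libraries lay 84.8 kb away, with Ttc23 as its nearest gene. It held 9.36, 10.2 and 7.88 normalized tags in IP libraries 1, 2 and 3 (mean 9.15 ± 1.17, SD, n = 3). Genes with no peak of any library within 50 kb made up 29.0% of protein-coding genes, so Synm is in a large class. Binding too weak to pass the minimum score of 13 to 16 would not appear in the deposited peaks.

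The other 13 of the 23 peaks had another protein-coding gene as their nearest one. Near Gfap, the region at the start of Kif18b, 102925068 to 102925263, lay 27.9 to 28.0 kb upstream of Gfap and was found in all 3 libraries. It held 5.78, 4.92 and 4.54 normalized tags in IP libraries 1, 2 and 3 (mean 5.08 ± 0.635, SD, n = 3), a lower value than that of the Gfap region in each library, with intervals that overlap. Single-library peaks lay inside Eftud2, a splicing factor gene, with 4.92 normalized tags in IP library 2, and inside C1ql1, with 3.82 in IP library 3. The C1ql1 peak was the farthest from Gfap, at 48.5 kb, and the next one beyond the limit lay 113 kb away.

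Around Nes the strongest signal belonged to the neighbour Bcan, which encodes brevican, a proteoglycan of the brain matrix. A region inside Bcan, 87998849 to 87999008 and 18.5 kb beyond the end of Nes, held 11, 9.54 and 6.45 normalized tags in IP libraries 1, 2 and 3 (mean 9.0 ± 2.32, SD, n = 3). The centres of its 3 peaks agreed within 4 bp, and the input had no tag under any of them. In IP libraries 2 and 3 it exceeded the peak inside Nes, 9.54 against 4.92 and 6.45 against 5.25, with intervals that overlap in both libraries. The Bcan region is the only one of all 3 libraries within 50 kb of Nes, so Nes counts as having one only where a region may also belong to a nearer gene.

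A further Bcan region, 88000207 to 88000406, overlapped the promoter window of that gene and was found in IP libraries 1 (5.78 normalized tags) and 2 (8.62). Weaker single-library peaks near Nes lay inside Bcan (4.13 in IP library 1), Isg20l2 (4.40 in IP library 1) and Rrnad1 (4.06 in IP library 3). Beyond the limit, the next region lay 64.9 to 65.0 kb from Nes inside Hdgf, with 8.99 ± 1.55 normalized tags (SD, n = 3).

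Over the 4 genes, the 23 peaks formed 14 regions. Of these, 3 (21.4%) were found in all 3 libraries, 3 (21.4%) in 2 and 8 (57.1%) in 1, beside 34.5%, 20.3% and 45.2% of all 27083 regions of the series. The nearest gene was one of the 4 filament genes for 6 regions, of which 1 was found in all 3 libraries, 2 in 2 libraries and 3 in 1 library. Promoter windows were overlapped by 5 of the 14 regions, and Gfap was the only one of the 4 filament genes whose own window was, in IP library 1. The share of all 27083 regions that overlap a promoter window was not counted, so the 5 of 14 is not a result about these genes.

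Of the 23 peaks, 16 (69.6%) were in the lower part of their library, below percentile 50 of normalized tags, beside 49.8% of all peaks. A score within 3 of the minimum was held by 12 (52.2%), beside 35.5% of all peaks of the series. These shares were not tested, since peaks of 1 region share their position. At least 1 peak lay within 50 kb of 62.0%, 62.5% and 60.2% of all protein-coding genes in IP libraries 1, 2 and 3, and of 3 of the 4 filament genes in each library. A region of all 3 libraries lay within 50 kb of 2 of the 4, Gfap and Nes, beside 46.0% of all genes and 41.4% of genes of at most 30 kb. Gfap alone was the nearest gene to a region of all 3 libraries, 1 of 4 beside 22.6% of all genes and 14.8% of genes of at most 30 kb. With regions of at least 2 libraries, 3 of the 4 had one within 50 kb, beside 57.7% of all genes. With 4 genes, these shares are near the background and are not a result about the group.

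**Figure D3:**
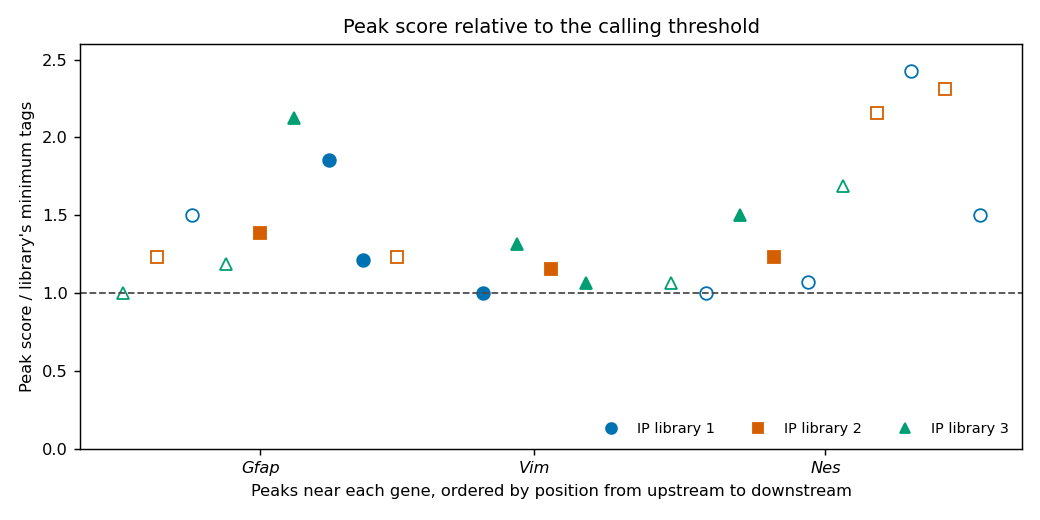
Peak score divided by the minimum tags of its library, for the 23 peaks near Gfap, Vim and Nes, ordered along each gene. The dashed line is the calling threshold, filled points have the named gene as the nearest one, and 12 of the 23 peaks have a score within 3 of the minimum.

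Other intermediate filament genes were set beside the 4. Of 22 of them, most at most 30 kb long, 8 (36.4%) had a region of all 3 libraries within 50 kb. This share was 46.0% of all genes and 41.4% of genes of at most 30 kb. The lamin gene Lmnb2 alone, 1 of 22 (4.55%), was nearest to such a region, beside 22.6% and 14.8%. None of the 7 other type III and IV genes, which include the neurofilament genes Nefl, Nefm, Nefh and Ina and the muscle gene Des, was nearest to such a region. The regions counted for Des (12.9 ± 2.76 normalized tags, SD, n = 3), Sync (11.9 ± 0.896) and Ina (5.97 ± 2.37) lay 42.3, 26.0 and 23.4 kb outside these genes and closer to Dnpep, Rbbp4 and Nt5c2. The 10 keratin genes, filaments of epithelia, had 2 with a region within 50 kb and none nearest to one. All 3 lamin genes had a region within 50 kb, and 1 of them was nearest to one.

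Among these other filament genes, the strengths closest to the Gfap region were those near Lmna (9.23 ± 1.39 normalized tags, SD, n = 3), Ina (5.97 ± 2.37) and Lmnb1 (5.80 ± 0.331), over 3 libraries. Each of these 3 regions had another gene as its nearest. For Nes, through its Bcan region, they were Lmna, Sync and Ina. The region of Lmnb2 itself, 0.035 kb outside that gene, held 4.80 ± 0.377, below the Gfap region.

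Genes of proteins that tie filaments to the rest of the cell or help them fold were listed as linkers and chaperones. Of 11 of them, 9 had a region of all 3 libraries within 50 kb and 5 were nearest to one, beside 46.0% and 22.6% of all genes. Their strongest regions ran from 5.49 normalized tags near Tln1, the adhesion protein talin, to 26.1 at Macf1, and Evpl and Cryab had none. Macf1, a giant crosslinker of actin and microtubules, had 23.7, 29.9 and 24.6 normalized tags in IP libraries 1, 2 and 3 (mean 26.1 ± 3.35, SD, n = 3) inside the gene. Vcl, the adhesion protein vinculin, had 30.3, 23.4 and 22.7 (25.5 ± 4.2), and Dtna, alpha-dystrobrevin, a binding partner of synemin, had 29.2, 20.6 and 20.8 (23.5 ± 4.91). These 3, the strongest of the list, exceeded the Gfap region in every library. These genes are long, 338, 104 and 350 kb, and held 7, 5 and 6 regions of all 3 libraries against 2 near Gfap, so the part of gene length in the counts was not tested.

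Kinases that phosphorylate filaments and thereby take them apart had 5 of 8 genes with a region within 50 kb and 3 nearest to one, beside the same 46.0% and 22.6% of all genes. They were led by Plk1, a mitotic kinase, with 17.9 ± 2.49 normalized tags (SD, n = 3) at 0.046 kb outside the gene, Cdk5 with 11.4 ± 2.34 at a region nearer to Slc4a2, and Pak1 with 11.2 ± 0.503. Of 8 transcription factors known to act at Gfap or Nes, 7 had a region within 50 kb and were nearest to one, against the same shares of all genes. The strongest were Sox9 (21.9 ± 0.751, 23.5 kb outside the gene), Nfib (20.4 ± 1.14, inside it) and Pou3f2 (17.9 ± 4.40, 6.79 kb outside it). Stat3, which switches on Gfap in astrocytes, had 6.21 ± 0.670. Nfia and Nfib are long genes, 541 and 217 kb, and the part of gene length was not tested here either.

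Among defining markers of cortical cell types, 6 of 6 astrocyte genes were nearest to a region of all 3 libraries. The counts were 2 of 6 neuron, 1 of 6 oligodendrocyte, 1 of 6 microglia and 2 of 6 endothelial genes, beside 22.6% of all genes. Within 50 kb of such a region were 6 of 6 astrocyte and 4 of 6 neuron genes. Oligodendrocyte, microglia and endothelial genes had 3 of 6 each, beside 46.0% of all genes. The lists were chosen with earlier results of these data known. An own region here is one that has the gene as its nearest, inside the gene or not. The strongest of an astrocyte gene, 15.5 kb outside Aldh1l1, a folate enzyme, held 22.7 ± 6.36 normalized tags (SD, n = 3). The weakest, 3.92 kb outside Gja1, connexin 43, held 4.74 ± 0.985. The own regions of Aldoc (10.2), Aqp4 (10.3), Slc1a3 (12), Slc1a2 (17.3) and Aldh1l1 had higher means than the Gfap region, and that of Gja1 a lower one. That of Aqp4 lay 10.6 kb outside the gene, and those of Aldoc, Slc1a3 and Slc1a2 lay inside.

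**Figure D4:**
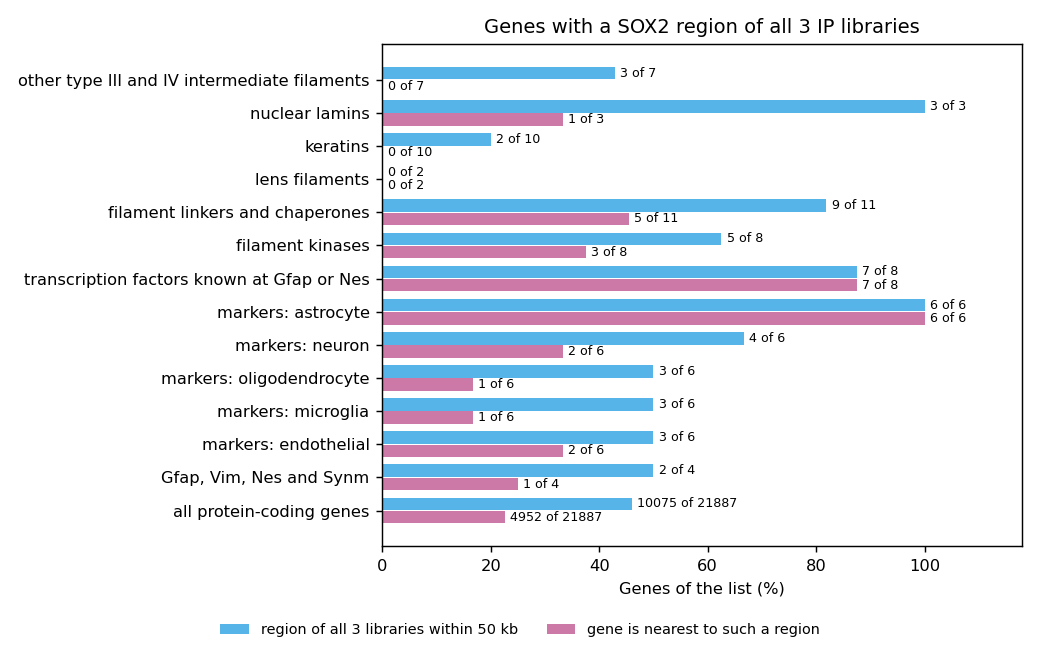
Share of genes (%) with a region of all 3 IP libraries within 50 kb, and share of genes that are nearest to such a region, for the lists set beside Gfap, Vim, Nes and Synm. Numbers are genes of genes matched. Gfap is the 1 of the 4 filament genes that is nearest to a region, beside 4952 of 21887 protein-coding genes.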

How the data were processed

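Bowtie 1.0.0, HOMER 4.7 and the mm10 build are named in the submitters' processing notes. Per the file headers, each IP library had its own peak calling against the input. The filters were 4-fold over input, 4-fold over the 10 kb around the peak, 0.0001 for the Poisson p-value and 0.001 for the false discovery rate. Normalized tags are a signal per 10000000 tags, per the file headers. Tag totals were deposited as whole counts in IP library 2 but as scaled signal, relative to the input total, in IP libraries 1 and 3. The deposited fold is the ratio of IP to input tags with a floor of 0.5. The focus ratio is a deposited fraction. The lowest deposited score of each library equals its minimum tag number. The authors' p-values were not used further.

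Whole tags were recomputed from normalized tags and library totals, and in each library 100% of values lay within 0.25 of a whole tag. Overlapping peaks (1 bp) were chained into regions. Intervals of folds are Clopper-Pearson intervals on IP and input tags. Starts and strands came from the RefSeq promoter table and spans from RefSeq GRCm38.p6. With 1 group of IP libraries, no test between groups was run, and lists are described beside all genes. The members and lists were chosen with earlier results of these data known. The 4 genes were always named, with all their peaks and the nearest genes, and at most 3 leading members of each list. Stat3, Tln1 and the astrocyte markers' own regions were added after their values were seen. Region joining was tested on simulated data. The software was Python 3.11.15 with scipy 1.17.1, numpy 2.4.6, matplotlib 3.10.9 and pandas 2.3.3.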

Additional observations from a re-analysis of the deposited data

How the results depend on the processing

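The number of the 4 genes with a region of all 3 libraries was 2 (Gfap and Nes), with 3 regions in all and a mean of 7.67 peaks per library. With a 10 kb limit or with the nearest gene only, 1 gene (Gfap) and 1 region were left in each case, and 3.33 peaks per library. With a 100 kb limit there were 6 regions at 3 genes, Synm being added through the region nearest to Ttc23. Regions of at least 2 libraries numbered 6, with Vim added. With the stronger 0.5 of peaks, 2 genes, 2 regions (1 near Gfap and 1 near Nes) and 3.33 peaks per library were left. Leaving out 1 library in turn, with a region then needing both others, gave 2 to 3 genes, 3 to 5 regions and 7.5 to 8 peaks per library. Without IP library 1 there were 5 regions, and the regions inside Vim and Nes then counted. The mean strength of the Gfap region was 7.33 to 8.21 normalized tags with 1 library left out and 7.73 with every other setting run for it: the overlap, gap, 8-fold, stronger 0.5 and 2-library settings and the tag column. Requiring overlap of 0.5 of both lengths, joining gaps of up to 200 bp or keeping only peaks of at least 8-fold left 2 genes and 3 regions. No paired analysis was possible because there is only 1 group of replicates. The depth of 15 to 40 tags per peak and 0 to 3 input tags limits the precision of folds more than that of strengths.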
